A study of Mus musculus with 8 samples.

Results

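Gene expression at day 6 of induced reprogramming was set against that of the starting mouse embryonic fibroblasts (MEFs), with 1 RNA sequencing library on each side. The unit is FPKM, in which sequenced fragments are divided by the length of the gene and the size of the library. Of 17922 rows in the table, 11816 had at least 1 FPKM in either of the 2 libraries and were compared. The call rule was a difference of at least 1 in log2(FPKM + 1) between day 6 and MEFs, in either direction. In all, 160 genes were called, of which 91 were higher and 69 lower.

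The MEFs were embryonic fibroblasts of 13.5D fetal C57BL/6 mice carrying the tetO-OSKM transgene, which adds copies of the genes Pou5f1, Sox2, Klf4 and Myc that doxycycline switches on. The MEF library (day 0) came from these cells before induction, and all groups share the transgene. The day 3 and day 6 libraries came from cells kept in doxycycline, in a serum-replacement (KSR) medium with LIF, the GSK3 inhibitor CHIR99021 and N-2 supplement. The iPSC library came from fully reprogrammed cells. No source used here names the medium that MEFs were kept in before doxycycline, so effects of that change of medium, of time and of induction cannot be told apart. Whether the libraries came from 1 culture or from pooled embryos, and how the iPSC line was derived, is likewise not stated.

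OCT4 (the product of Pou5f1), SOX2, KLF4 and MYC together can turn a fibroblast into a pluripotent cell. In the first days the fibroblast programme gives way slowly, cells begin to divide faster and take on epithelial features, and only a minority go on to activate the resident pluripotency genes. Embryonic fibroblasts in culture also hold stress fibres of smooth muscle actin and its partner proteins, whose genes are read by serum response factor (SRF) together with myocardin-related cofactors. NRF2 and the aryl hydrocarbon receptor are transcription factors that switch on enzymes of detoxification and antioxidant defence.

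The libraries matched their labels in outline. The summed level of 28 fibroblast matrix and surface genes was 22559 FPKM in MEFs, then 22654 and 20184 after 3 and 6 days, and 783 in iPSCs, and 27 of 27 listed pluripotency genes reached 1 FPKM in iPSCs against 6 in each other library. Judged from the lowest nonzero values, the day 3 library held about 0.646 times as many fragments as the MEF library, and the day 6 and iPSC libraries 1.035 and 1.05 times as many. Low values at day 3 are therefore the least precise. With 1 library a stage there is no error for any value and no test was possible.

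The change from MEFs to day 6 was narrow. Of the genes compared, 1.35% were called, 0.77% as higher and 0.584% as lower, and 91.6% lay within 0.5 of their MEF value. The median difference over all of them was -0.02. Among 5915 genes at 10 to 100 FPKM in MEFs the robust SD of the difference was 0.22, which holds both noise and real differences. The higher genes were mostly weak in MEFs. Their median level was 1.15 FPKM in MEFs and 6.57 at day 6, 44 of 91 were under 1 FPKM in MEFs, 12 were listed at 0 there, and 0 reached 100 FPKM. The lower genes started from more, with medians of 16.5 and 6.06 FPKM and 8 of 69 at 100 FPKM or more in MEFs. They also differed by less: 62 of 69 lay between 1 and 1.5, against 51 of 91 higher genes, and 2 against 17 reached a difference of 2. A gene under 1 FPKM in MEFs could enter only by being higher at day 6, so the counts of weak genes partly follow from the filter.

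**Figure D1:**
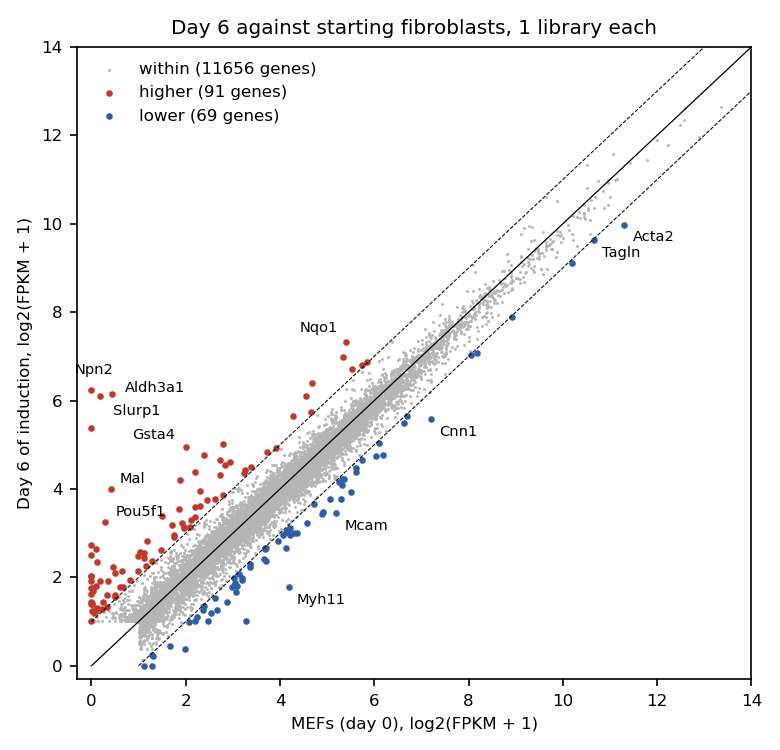
Each point is 1 of 11816 genes, with log2(FPKM + 1) in MEFs on the x axis and at day 6 on the y axis, 1 library each. The solid line marks equal values and the dashed lines a difference of 1, beyond which 91 genes were higher (red) and 69 lower (blue). The higher genes gather at the weak end, and the blue points run up to Acta2 at 2534 FPKM in MEFs.

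Values below are given in the order MEFs, day 3, day 6 and iPSCs, and a difference is that of log2(FPKM + 1) between day 6 and MEFs unless stated otherwise. Of the induced factors, Pou5f1 was at 0.226, 3.03, 8.56 and 740 FPKM, a difference of 2.96. Sox2 was at 0.411, 1.19, 2.03 and 88.7 FPKM, a difference of 1.10. Both stood above MEFs at day 3 already, and both had covered little of the way to iPSCs on the log2 scale by day 6, 32.1% for Pou5f1 and 18.4% for Sox2. Klf4 differed by 0.17 and Myc by 0.42, so neither was called. The table does not separate reads of the induced copies from those of the resident genes.

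Of the gene lists, that of NRF2 targets held the most higher genes. All 31 NRF2 target genes found in the table were compared, 9 were higher and 0 lower, 28 lay above their MEF value, and the median difference was 0.58. The shares over all genes compared were 0.77% higher, 0.584% lower and 46.6% above MEFs. Of the 31, 27 reached 1 FPKM in MEFs. The rest, Gsta1, Gsta2, Gsta3 and Aldh3a1, are among the 9 and were compared only because they were higher at day 6. They enter the median as well, so it too depends in part on the filter. Nqo1, which encodes a quinone reductase, was at 41.2, 62.3, 159 and 15.4 FPKM, a difference of 1.92. Day 6 was thus the highest of the 4 libraries for this gene and iPSCs the lowest. Gclm, the modifier subunit of the enzyme that limits glutathione synthesis, was at 12.3, 18.6, 27.8 and 20.1 FPKM, and its catalytic partner Gclc at 9.67, 10.5, 16.4 and 18.0 FPKM was within the threshold. Srxn1, which repairs oxidised peroxiredoxins, was at 18.3, 18.0, 49.4 and 10.1 FPKM. Thioredoxin reductase, encoded by Txnrd1, was at 56.2, 56.3, 117 and 73.5 FPKM. Neither Srxn1 nor Txnrd1 stood above its MEF value by more than 0.01 at day 3, so for both the whole difference lay between day 3 and day 6. The Txnrd1 row overlaps the coding gene Eid3 in the annotation used.

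Other members of the list moved less. The iron-storage gene Fth1 was at 552, 587, 870 and 314 FPKM (difference 0.66), heme oxygenase, encoded by Hmox1, at 135, 139, 196 and 40.0 FPKM (0.54), and the peroxidase gene Prdx1 at 448, 447, 637 and 583 FPKM (0.51). In each of these 3 genes day 3 was near MEFs and day 6 above both. Nfe2l2, the gene of NRF2 itself, differed by 0.30, and Keap1, which holds NRF2 inactive, by -0.10.

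Glutathione transferases join glutathione to reactive compounds, and the alpha class acts on products of lipid peroxidation. Gsta4 was at 3.04, 6.78, 29.7 and 308 FPKM, a difference of 2.93. It was the only one of the higher transferases that was far higher still in iPSCs. Gsta1 was at 0.0765, 0.497, 2.51 and 0 FPKM, Gsta2 at 0.130, 0.365, 2.77 and 0 FPKM, and the predicted gene Gm3776 at 0.0272, 0.381, 2.37 and 0 FPKM. These 3 genes are near-identical copies, so their reads could be divided among them in any proportion and they are best read as 1 signal. Gsta3 (0.0637, 0.117, 1.46 and 0.612 FPKM) and the microsomal transferase gene Mgst2 (0.988, 0.489, 4.56 and 1.32 FPKM) were also higher. Of 21 glutathione transferases compared 5 were higher and 0 lower, in a family picked after its values were seen, and the median over all 21 was 0.16. In MEFs 17 of the family reached 1 FPKM, and Gsta4 was the only higher one among them. The other higher ones were compared only because of their day 6 level. The mu-class genes Gstm1, Gstm2 and Gstm4 lay between -0.10 and 0.44.

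The list of the aryl hydrocarbon receptor and its targets overlapped with that group. Of its 10 genes compared, 5 were higher and 0 lower, with a median of 0.71. The 10 include Ahr itself, which is among the 5, as well as Arnt and Nfe2l2. The higher targets were Nqo1, Aldh3a1, Ugt1a6a and Ugt1a7c. Of these, Aldh3a1 and Ugt1a7c were under 1 FPKM in MEFs and were compared only because they were higher at day 6. Nqo1, Aldh3a1 and Nfe2l2 belong to both lists. Aldh3a1, which oxidises aldehydes and is plentiful in corneal epithelium, was at 0.360, 9.97, 70.2 and 0.592 FPKM, a difference of 5.71. Ahr, the gene of the receptor, was at 6.65, 8.48, 23.5 and 2.13 FPKM. Its partner Arnt differed by 0.01, and its repressor Ahrr, at 4.81, 4.81, 2.40 and 0.144 FPKM, differed by -0.77. The direct target Cyp1b1 was within the threshold (175, 191, 215 and 2.26 FPKM), and Cyp1a1 was under 0.3 FPKM in all 4 libraries. Tiparp, another target, differed by -0.27. Ugt1a6a, Ugt1a6b and Ugt1a7c, glucuronidation enzymes, reached 5.00, 3.39 and 2.46 FPKM at day 6 from 1.03, 0.556 and 0.586 in MEFs. The Ugt1a genes share their last exons, so these 3 rows are not independent measurements.

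Genes of stratified epithelium formed the second group. Of 21 epidermal and squamous genes in the table, 10 reached 1 FPKM in MEFs or at day 6, and 7 of those were higher and 0 lower. Of the 7, 6 were under 1 FPKM in MEFs and were compared only because they were higher at day 6, so that count is a description of the filter as well. With all 21 kept, the median difference was 0.29. Slurp1, which stratified epithelia secrete, was at 0.143, 12.2, 67.9 and 0.0664 FPKM, a difference of 5.91. Mal, a membrane proteolipid of epithelia and myelin, was at 0.342, 4.85, 15.0 and 1.07 FPKM. Sprr1a, a precursor of the cornified envelope and the 1 called member above 1 FPKM in MEFs, was at 2.77, 2.36, 8.43 and 0.830 FPKM. All 3 were higher at day 6 than in the other libraries.

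Keratins are the intermediate filaments of epithelia. Krt14, the keratin of basal epidermal cells, was listed at 0 in MEFs and was at 0.575, 4.66 and 0.482 FPKM in the 3 later libraries. Krt16, a keratin of wounded and mucosal epithelium, was at 0.0663, 0.940, 5.27 and 0.210 FPKM. Krt13, a mucosal keratin, was listed at 0 in MEFs and was at 0.788, 2.76 and 0.0544 FPKM in the libraries after it. A different set belongs to simple epithelia and to iPSCs: Krt8 was at 0.0263, 0.356, 2.22 and 110 FPKM and Krt19 at 2.37, 5.24, 6.57 and 57.9 FPKM. Krt18, the usual partner of Krt8, was at 0.514, 0.340, 0.172 and 215 FPKM and did not reach 1 FPKM at day 6. Krt7 had a difference of -0.92. Of 27 keratin genes in the table, a family picked after its values were seen, 11 were compared, of which 6 were higher, 0 lower and 4 below MEFs within the threshold. In MEFs 6 keratins reached 1 FPKM, and Krt19 was the only higher one among them. Krt8, Krt13, Krt14, Krt16 and Krt17 were compared only because they were higher at day 6. The same holds for 4732456N10Rik, now named Krt90 and not counted among the 27. It was at 0, 1.27, 3.10 and 0.00523 FPKM and was called higher.

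Markers of differentiated epidermis did not behave alike. Sprr1a and Krtdap were called higher, as was Crct1, a cornified envelope gene outside the list, at 1.17, 2.35, 4.45 and 0.0268 FPKM. Cnfn, the envelope protein cornifelin, was listed at 0 in MEFs and was at 0.588, 0.966 and 0.0396 FPKM afterwards, just under the minimum for comparison. Krt6a and Krt6b, keratins of activated epidermis, were listed at 0 in MEFs and were at 0.566 and 0.431 FPKM at day 6. Several other members stayed lower. At day 6 Krt1 was at 0.0388 FPKM, Krt10 at 0.188, involucrin (Ivl) at 0.0301, filaggrin (Flg) at 0.00427 and the desmosomal cadherin Dsg3 at 0.0916. Trp63, the gene of the master regulator of stratified epithelium, was at 0.816, 0.713, 1.05 and 0.0140 FPKM. The summed level of the 21 members was 75.2, 92.7, 194 and 71.6 FPKM, and most of the gain was that of Slurp1. Of 21 members, 9 were listed at 0 in MEFs and 1 at day 6. Whether a few epithelial cells or weak expression in many cells gave these values was not tested.

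Among 9 epithelial genes compared, Krt8 and Krt19 were higher and 0 were lower, and the median was 0.26, or -0.21 with a minimum of 5 FPKM. Of the 9, 6 reached 1 FPKM in MEFs, and Krt8 was not among those. Itgb4, an integrin of hemidesmosomes, was at 0.421, 1.35, 3.28 and 4.15 FPKM, with a row that overlaps the coding gene Galk1. Aqp3, the water and glycerol channel of basal keratinocytes, was at 0.0919, 0.473, 4.11 and 24.9 FPKM. Podxl, the sialomucin podocalyxin, which is also a surface marker of pluripotent cells, was at 0.0871, 0.296, 1.49 and 21.7 FPKM. These 3 were higher at day 6 and higher again in iPSCs. Krtdap, a secreted keratinocyte protein, was listed at 0 in MEFs and was at 0.271, 2.08 and 2.45 FPKM afterwards.

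**Figure D2:**
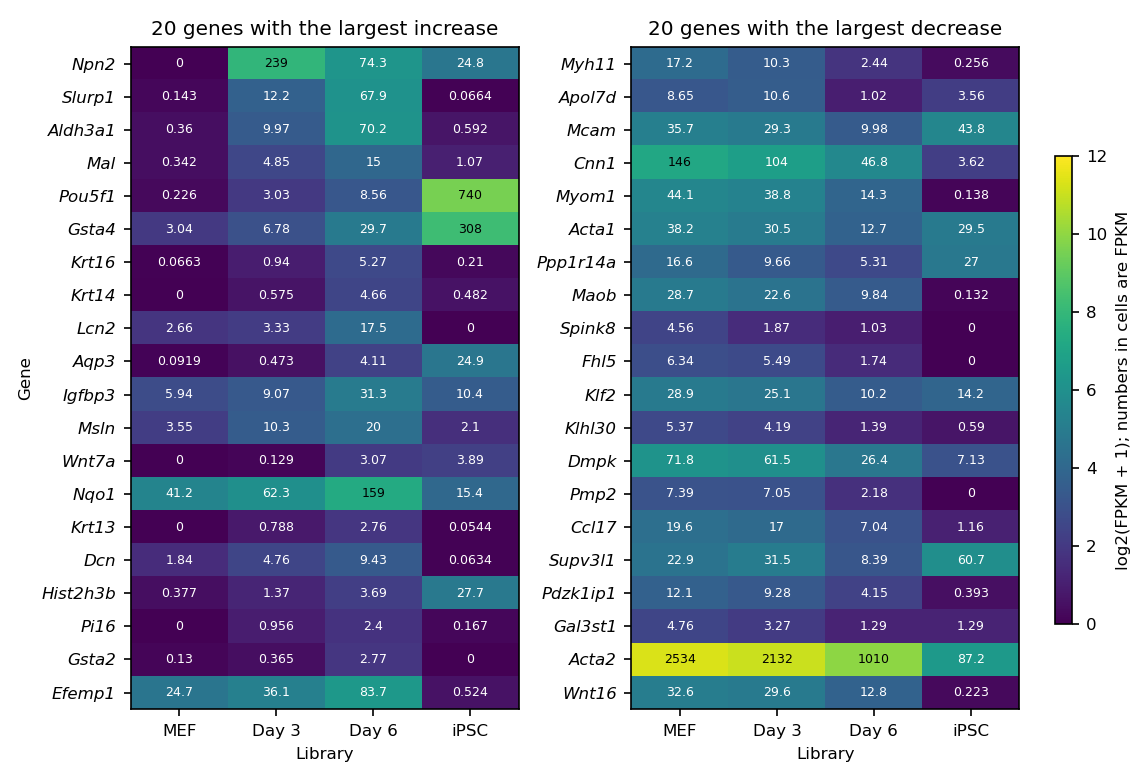
Colour and numbers show the level of the 20 genes with the largest increase (left) and the 20 with the largest decrease (right) at day 6 against MEFs, without predicted, clone or short RNA names, in each of the 4 libraries, with colour on the log2(FPKM + 1) scale and numbers in FPKM. Many increases on the left are dark again in iPSCs, such as Slurp1 at 67.9 and 0.0664 FPKM, while most decreases on the right go on to lower values there, such as Cnn1 at 46.8 and 3.62 FPKM.

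Several inflammatory and acute-phase genes were higher at day 6. Lcn2, a lipocalin that binds bacterial siderophores, was at 2.66, 3.33, 17.5 and 0 FPKM, a difference of 2.34. The neutrophil chemokine genes Cxcl1 and Cxcl5 were at 2.88, 3.89, 7.65 and 0.181 FPKM and at 1.15, 1.74, 4.84 and 0.0389 FPKM. Interleukin 6, encoded by Il6, was at 1.77, 1.56, 5.18 and 0.132 FPKM. All 4 were lowest in iPSCs. Of 18 chemokine and inflammatory genes compared these 4 were the only ones called, and the median was 0.14. Of the 18, 10 lay above MEFs and 8 below, and the more abundant members stayed within the threshold on either side. Cxcl12, at 649, 573, 629 and 3.30 FPKM, differed by -0.05, Ptgs2, the inducible cyclooxygenase, by -0.40 and Lif by -0.83. Csf1 differed by 0.25, Ccl2 by 0.27 and Ptges by 0.96.

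Macrophages can accompany fibroblast cultures. Of 15 macrophage and leukocyte markers compared, 4 were above MEFs at day 6 and 11 below, 0 were called, and the summed level of all 21 in the table was 113, 87.3, 97.5 and 54.2 FPKM. Lyz2 differed by -0.38, C1qa by 0.39 and Ptprc, the pan-leukocyte antigen CD45, stood at 0.703 FPKM in MEFs and 0.466 at day 6. None of the 21 was listed at 0 at day 6. Their part in the inflammatory genes was not tested.

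Surface and immune-related genes of fibroblasts stood beside these. Ly6a, which encodes the stem cell antigen SCA-1, was at 39.4, 56.2, 125 and 0.699 FPKM, and Ly6c1 at 2.61, 3.57, 10.6 and 0.222 FPKM. Vcam1, an adhesion molecule for leukocytes, was at 3.34, 2.85, 8.89 and 0.463 FPKM. Serpina3n, an acute-phase protease inhibitor, was at 5.196, 5.92, 12.7 and 0.284 FPKM. All 4 genes were highest at day 6 and lowest in iPSCs.

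Matrix and secreted factors contributed further genes. Dcn, the proteoglycan decorin, was at 1.84, 4.76, 9.43 and 0.0634 FPKM and was the only one of 28 fibroblast matrix and surface genes called. Efemp1, which encodes fibulin-3, was at 24.7, 36.2, 83.7 and 0.524 FPKM. Prelp, a leucine-rich proteoglycan of connective tissue, was at 24.4, 36.4, 52.7 and 0.0336 FPKM. These 3 matrix genes were higher at each step to day 6 and under 1 FPKM in iPSCs. Igfbp3, the main carrier of insulin-like growth factors in blood, was at 5.94, 9.07, 31.3 and 10.4 FPKM. It was the only one of 16 IGF system genes called. Tgfbi, a matrix protein named for its induction by TGF-beta, was at 8.60, 8.97, 20.7 and 3.77 FPKM, and was the only one of 22 TGF-beta and BMP response genes called.

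Genes of WNT signalling were few. Tcf7l1, a repressor that acts at WNT targets, was at 2.28, 8.12, 8.15 and 4.21 FPKM, so 99.7% of its difference was present at day 3. Wnt7a was listed at 0 in MEFs and was at 0.129, 3.07 and 3.89 FPKM afterwards, whereas Wnt16 was at 32.6, 29.6, 12.8 and 0.223 FPKM and was called lower. Of 13 WNT target genes 1, Tcf7l1, was called. Cyclin D1, encoded by Ccnd1, was just under the threshold with 82.4, 100.1, 160 and 15.1 FPKM. Axin2, the feedback gene used most often as a readout, was at 1.31, 1.11, 1.57 and 2.10 FPKM.

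Msln, a surface protein of mesothelium, was at 3.55, 10.3, 20.04 and 2.10 FPKM, a difference of 2.21. Krt19 also belongs to the mesothelial list. The regulators Wt1 and Bnc1 and the marker Upk3b were at 0.0141, 0.164 and 0.265 FPKM at day 6, and at 0.0214, 0.241 and 0.421 FPKM in MEFs. Upk1b, a uroplakin of the same list, had the opposite direction at 0.0425, 0.121, 0.688 and 0.201 FPKM. The other compared member, Pdpn, differed by -0.04.

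Some called values rest on weak ground. Npn2 had the largest difference of the table, 6.24, with 0, 239, 74.3 and 24.8 FPKM, and had no entry in the annotation used. Gm17631 was listed at 0 in the 3 other libraries and was at 40.6 FPKM at day 6. In all, 9 of the higher and 7 of the lower genes carried predicted, clone or short RNA names. A further limit is overlap: 7 higher and 8 lower genes overlap another coding gene, among them Alas2 with Apex2, Tagln with Pcsk7 and Adck5 with Cpsf1, and no source used here says whether counting used strand.

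Smooth muscle and contractile genes were the list with the most lower genes. Of 23 SRF target and contractile genes compared, 0 were higher and 8 lower, 22 lay below their MEF value, and the median difference was -0.61. The shares over all genes compared were 0.77% higher, 0.584% lower and 46.6% above MEFs. Myh11, the heavy chain of smooth muscle myosin, was at 17.2, 10.3, 2.44 and 0.256 FPKM, a difference of -2.40. Cnn1, the smooth muscle calponin, was at 146, 104, 46.8 and 3.62 FPKM. Acta2, smooth muscle actin and the most abundant of the called genes, was at 2534, 2132, 1010 and 87.2 FPKM, a difference of -1.33. Myl9, the regulatory light chain of myosin, was at 1163, 886, 555 and 28.4 FPKM. For these 4 genes each library was lower than the one before. Synpo2 and Lmod1, which organise actin filaments, differed by -1.10 and -1.22, and Tagln, the actin-binding protein transgelin, by -1.02. Acta1, the actin of skeletal muscle, went from 38.3 to 12.7 FPKM with 29.5 in iPSCs, and so did not share the low iPSC level.

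Members of the list that make up stress fibres in many cell types were lower by less. Vinculin (Vcl), the focal adhesion adaptor, was at 338, 336, 221 and 23.6 FPKM, a difference of -0.61. Tropomyosin 1 (Tpm1) differed by -0.39, filamin A (Flna) by -0.18 and Srf itself by -0.27. Cyr61 and Ctgf, secreted proteins read by SRF and by the YAP pathway, differed by -0.19 and -0.50. Des, the muscle intermediate filament desmin, was the 1 member above MEFs, with 0.647, 0.951, 1.38 and 24.7 FPKM. The summed level of the 25 members in the table was 14135, 12389, 8781 and 1074 FPKM.

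Further contractile genes outside the list were lower. Myom1, a protein of the sarcomere M-band, was at 44.2, 38.8, 14.3 and 0.138 FPKM. Ppp1r14a, an inhibitor of myosin phosphatase, was at 16.6, 9.66, 5.31 and 27.0 FPKM, and the kinase gene Dmpk at 71.8, 61.5, 26.5 and 7.13 FPKM. Mcam, an adhesion molecule of vascular smooth muscle and endothelium, was at 35.7, 29.3, 9.98 and 43.8 FPKM. Ppp1r14a and Mcam were lowest at day 6 of all 4 libraries. Of LIM domain genes, whose products couple actin to gene control and which were picked after their values were seen, 21 were compared, 17 lay below MEFs and 4 were called lower, which were Fhl5, Lmcd1, Lims2 and Limch1. In bulk RNA, fewer cells of a contractile type and less RNA per cell cannot be told apart. Of 15 skeletal muscle genes in the table only 2 reached 1 FPKM in MEFs or at day 6, with differences of -0.56 and -0.55, and the summed level of the 15 was 6.84, 5.21, 5.27 and 399 FPKM. Of 6 endothelial markers compared, 1 was higher (Tek, at 0.262, 1.22, 2.06 and 2.45 FPKM), 1 lower (Mcam) and 4 within the threshold, among them Eng at 14.3 and 11.9 FPKM and Egfl7 at 3.17 and 4.67 FPKM in MEFs and at day 6. The defining markers Pecam1 and Cdh5 were at 0.0215 and 0.0318 FPKM at day 6. The part of endothelial cells in these values was not tested.

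SRF binds the CArG box, which is CC and GG around 6 letters that are each A or T, and the box reads the same on both strands. It was searched in the 250 bases before the RefSeq start of each gene on assembly GRCm38.p6, and 99 of the 160 called genes had a promoter entry. The box was found in 5 of 44 lower genes (11.4%), in 0 of 55 higher genes, in 134 of 9222 compared genes (1.45%) and in 482 of 32851 entries (1.47%). The search was chosen after the lower genes were seen and is given without a test. A match is a run of letters and not a shown binding site. The 5 promoters are printed because they are the lower genes that held a match: 90 bases of each, 5′ to 3′ on the strand of the gene, with the box in capitals. They lie at chr8:123894799-123894888 (Acta1, minus strand), chr11:120732080-120732169 (Cbr2, minus), chr6:112273508-112273597 (Lmcd1, plus), chr2:156775263-156775352 (Myl9, plus) and chr17:71019418-71019507 (Myom1, plus).
Acta1: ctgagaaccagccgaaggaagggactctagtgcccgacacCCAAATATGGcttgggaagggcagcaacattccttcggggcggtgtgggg
Cbr2: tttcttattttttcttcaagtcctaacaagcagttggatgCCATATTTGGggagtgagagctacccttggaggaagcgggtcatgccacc
Lmcd1: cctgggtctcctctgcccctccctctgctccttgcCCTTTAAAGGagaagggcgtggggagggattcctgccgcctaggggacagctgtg
Myl9: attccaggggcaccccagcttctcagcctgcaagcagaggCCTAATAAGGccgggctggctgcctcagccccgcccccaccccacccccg
Myom1: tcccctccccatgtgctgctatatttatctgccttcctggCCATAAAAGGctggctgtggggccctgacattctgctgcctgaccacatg

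The box began 73 bases before the start in Acta1, 108 in Cbr2, 215 in Lmcd1, 161 in Myl9 and 99 in Myom1. In the contractile list as a whole, called or not, 5 of 19 genes with an entry held a match. Acta1, Myl9 and Myom1 encode contractile proteins and Lmcd1 a LIM domain cofactor. Cbr2, a carbonyl reductase best known from lung, is not a contractile gene and was at 288, 247, 134 and 0.170 FPKM. Other lower contractile genes with an entry held no match in this window, which says only that these letters are not there.

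Other motifs were no more frequent in higher genes than in all compared genes. The antioxidant response element, searched as TGACNNNGC and TGAGNNNGC on both strands, was found in 16 of 55 higher genes (29.1%), 11 of 44 lower genes and 2762 of 9222 compared genes. The core that the aryl hydrocarbon receptor recognises, GCGTG, was found in 34.5% of higher, 29.5% of lower and 51.2% of compared genes. An NF-kB motif was found in 9.09%, 18.2% and 10.8%. Among 25 NRF2 targets with an entry the antioxidant element was found in 11 (44.0%).

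Most cartilage genes lay below MEFs within the threshold. Of 17 compared, 14 lay below MEFs, 1 was called and the median was -0.69. Col2a1, the collagen of cartilage, was at 740, 941, 503 and 1.79 FPKM, Col11a1 at 289, 326, 167 and 2.32 FPKM, and Sox9, the master regulator of chondrocytes, at 12.6, 13.3, 7.85 and 0.0905 FPKM. All 3 were somewhat above MEFs at day 3 and below them at day 6. Hapln1, which links aggrecan to hyaluronan, was the called member with 17.6, 17.8, 6.84 and 0.0108 FPKM. Prg4, the lubricin of joint surfaces, went the other way with 0.508, 0.973, 1.93 and 0.179 FPKM.

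The other lower genes were of mixed function. Klf2 and Klf15 of the Kruppel-like factors were lower, with 28.9, 25.1, 10.2 and 14.2 FPKM and with 3.71, 3.17, 1.15 and 3.29 FPKM, and Klf10 was higher with 8.36, 10.4, 19.7 and 32.9 FPKM. Of 14 Kruppel-like factors compared the other 11 were within the threshold. Maob, the mitochondrial monoamine oxidase B, was at 28.7, 22.6, 9.84 and 0.132 FPKM. Tnfrsf11b, the decoy receptor osteoprotegerin, was at 266, 215, 130 and 0.0780 FPKM. Nox4, an oxidase that makes hydrogen peroxide, was at 52.5, 45.7, 24.1 and 1.72 FPKM. The chemokine gene Ccl17 was at 19.6, 17.0, 7.04 and 1.16 FPKM, opposite in direction to Cxcl1 and Cxcl5. Of these, Maob, Tnfrsf11b, Nox4 and Ccl17 were lower still in iPSCs. Supv3l1, an RNA helicase of mitochondria, was at 22.9, 31.5, 8.39 and 60.7 FPKM, above MEFs at day 3 and below them at day 6.

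The lists of cell cycle, cholesterol synthesis, glycolysis, oxidative phosphorylation and hypoxia response genes had no member called, and their medians differed. Over all genes compared 1.35% were called, and lists of this size would hold few at that share. Of 31 cell cycle genes compared, 29 lay above MEFs, with a median of 0.36 and 0 called. Mki67, a marker of dividing cells, was at 25.4, 28.2, 37.2 and 80.0 FPKM, and Mcm5, a subunit of the replicative helicase, at 18.3, 20.2, 24.0 and 121 FPKM. For both, each library was above the one before. Of 23 cholesterol synthesis genes 22 lay below MEFs, with a median of -0.50 and 0 called. Idi1, an isomerase of the isoprenoid steps, was at 10.6, 9.08, 5.55 and 12.9 FPKM, and Insig1, a sterol sensor, at 31.8, 29.1, 18.1 and 85.9 FPKM. Both were lowest at day 6 and highest in iPSCs. Of 20 glycolysis genes 16 lay above MEFs, with a median of 0.15, smaller than the robust SD of 0.22 given above. Oxidative phosphorylation genes lay above MEFs in 6 and below in 12 of 18 (median -0.05), and hypoxia response genes above in 7 and below in 9 of 16 (median -0.01), and both medians turned positive, to 0.0037 and 0.046, when libraries were scaled to their upper quartile. Over all genes compared, 46.6% lay above MEFs.

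Gene sets that define the fibroblast and the pluripotent cell showed little net difference. The median was -0.02 over 28 fibroblast matrix and surface genes, or 0.03 with upper quartile scaling, and 0.01 over 16 mesenchymal regulators, with Dcn the only call. Col1a1 and Col6a3 lay above MEFs by 0.63 and 0.92, and S100a4 and Postn below by 0.60 and 0.57. Of 27 pluripotency genes in the table only 6 were compared, because 21 were under 1 FPKM in both libraries, among them Nanog at 0.398 FPKM in MEFs and 0.241 at day 6. Klf2 was the 1 called and Mybl2 differed by 0.48. Over all 36 lists, 542 genes were compared, of which 37 were higher and 13 lower, and 15 lists had no member called. The lists were drawn up with earlier results of these libraries known, so their counts are no independent evidence.

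**Figure D3:**
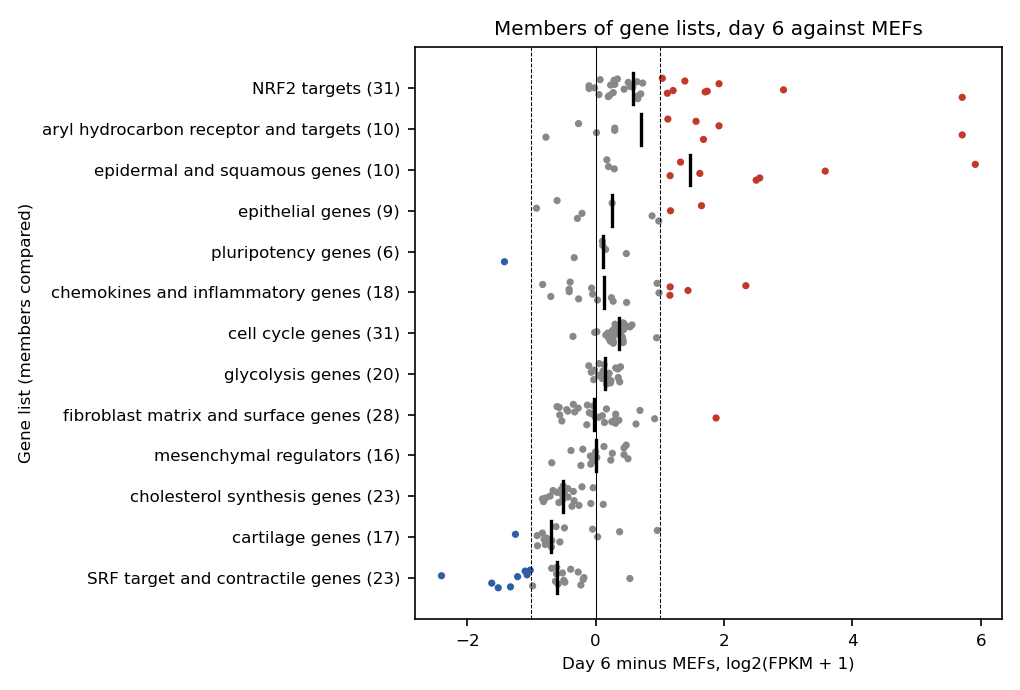
Each point is a gene, placed by its difference between day 6 and MEFs on the log2(FPKM + 1) scale (x axis) in the row of its list (y axis, with the number of members compared). Black bars are list medians, dashed lines mark the threshold of 1 on either side, and red and blue points are called. NRF2 targets (median 0.58) reach far to the right, though their farthest point, Aldh3a1, was compared only because of its day 6 level. The SRF target and contractile list (median -0.61) holds most of the blue points.

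Day 3 stood between MEFs and day 6 for most of the called genes, yet nearer to MEFs. It lay strictly between them for 77 of 91 higher and 60 of 69 lower genes, against 45.6% of all genes compared. The called genes were selected for a wide gap between MEFs and day 6, which leaves more room between the 2 values. The contrast with all genes therefore follows in part from the call rule. The share of the day 6 difference present at day 3 had a median of 25.2% for higher genes (quartiles 10.9% and 47.7%) and 21.0% for lower genes (13.2% and 34.4%). On the log2 scale the median first step was 0.42 and the second 1.04 for higher genes, and -0.26 and -0.95 for lower genes. Only 11 of the higher and 2 of the lower genes had met the same threshold at day 3 already. Over the same 11816 genes, 0.144% were higher and 0.0508% lower at day 3. Neither step alone met it for 36 higher and 41 lower genes, which were called only over the full 6 days.

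A gene was termed steady when 25% to 75% of its difference stood at day 3, early above that and late below. There were 41 steady, 45 late and 5 early genes among the higher ones, and 26, 39 and 4 among the lower. Of all genes compared 25.4% had a day 3 share in the steady range, a figure that is subject to the same limit of selection. The steady higher genes included Slurp1 with 59.6%, Mal with 59.4%, Msln with 59.15%, Pou5f1 with 58.0% and Aldh3a1 with 52.8%. These genes had a little over 50% of their log2 difference by day 3. Nqo1 (30.4%), Efemp1 (30.9%), Krt16 (33.8%) and Gsta4 (32.3%) were steady with the larger step after day 3. Lcn2 (10.4%), Aqp3 (19.4%), Wnt7a (8.63%), Il6 and Srxn1 were late, the last pair with day 3 just under MEFs. Early genes were Npn2, Gm17530, Tcf7l1, Krt19 and Anxa8, the last an annexin at 52.8, 95.3, 110 and 7.01 FPKM.

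Among the lower genes the contractile list divided evenly, with 4 steady and 4 late members. Myh11 (28.5%), Cnn1 (30.1%), Myl9 (36.8%) and Tagln (25.2%) were steady, and Acta2 (18.8%), Acta1 (20.9%), Lmod1 (21.2%) and Synpo2 (5.32%) late. Tagln and Lmod1 lie close to the 25% bound that divides them. Spink8, a protease inhibitor, had 65.6% of its difference at day 3 (4.56, 1.87, 1.03 and 0 FPKM), and Ppp1r14a 48.9%. Early lower genes were Chi3l3, at 1.15 FPKM in MEFs and listed at 0 in the other libraries, and the predicted genes Gm12166, Gm5239 and Gm11027, all near the 1 FPKM minimum in MEFs. The order of late and steady among higher genes also turned with the pseudocount, to 16 steady and 8 late with 5. The day 3 share uses the shallowest library, and the MEF value enters both differences.

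**Figure D4:**
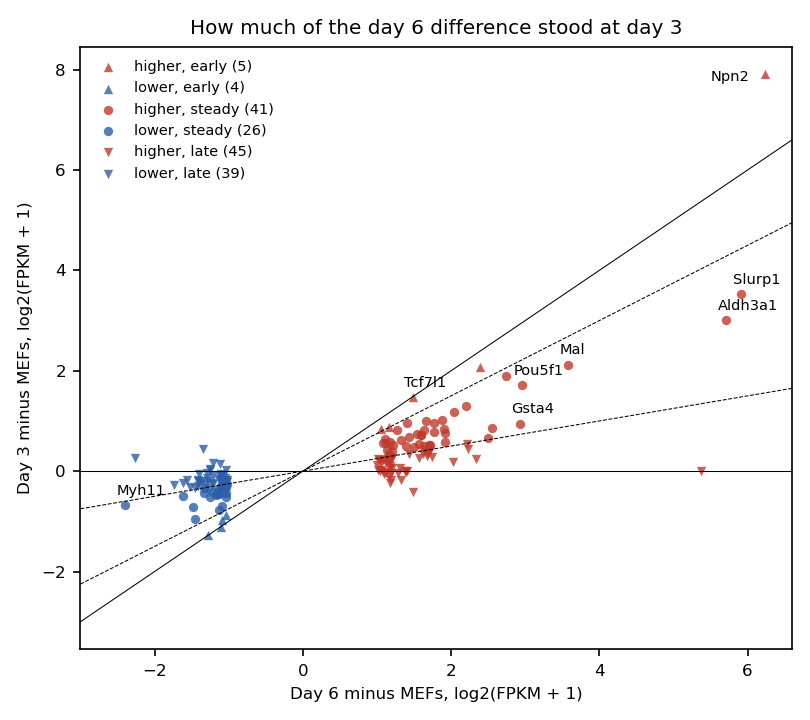
Each of 160 called genes is placed by its difference between day 6 and MEFs (x axis) and between day 3 and MEFs (y axis), both on the log2(FPKM + 1) scale. The solid diagonal is a full difference at day 3, the dashed lines are shares of 25% and 75%, red is higher and blue lower, and upward triangles are early, circles steady and downward triangles late. Most points have a share under 25% or lie between the dashed lines, with 45 late and 41 steady higher genes, and Npn2 alone lies well beyond the diagonal.

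The position of iPSCs was then set beside the day 6 difference. A gene was termed toward when iPSCs differed from MEFs by at least 1 in the same direction as day 6, away when in the other, and neither when iPSCs were within 1 of MEFs. Of the lower genes 53 were toward, 4 away and 12 neither. Of the higher genes 24 were toward, 28 away and 39 neither. The median difference of iPSCs from MEFs was -2.47 for the lower and 0.01 for the higher genes. Over all genes compared, iPSCs were lower than MEFs by the same threshold in 27.4% and higher in 14.6%. The MEF library enters both differences, so these counts are a description. With the iPSC position taken against day 3 in place of MEFs, the counts were 49, 5 and 15 for lower and 20, 37 and 34 for higher genes. Among higher genes the order of toward and away turned with the pseudocount, to 62 and 56 with 0.1 and to 5 and 4 with 5.

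The level in MEFs bears on these counts. Of lower genes at 10 FPKM or more in MEFs 34 of 42 were toward, where 32.9% of all 6647 such genes were lower in iPSCs. Of lower genes at 1 to 10 FPKM it was 19 of 27, where it was 21.15% of 4941. Among higher genes under 1 FPKM in MEFs 16 of 44 were toward, where 27.6% of 228 such genes were higher in iPSCs, and none of these 44 could be away. Among the 47 higher genes at 1 FPKM or more in MEFs, 8 were toward and 28 away, where 14.4% and 27.9% of all such genes were higher and lower in iPSCs.

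Toward genes had gone part of the way. On the log2 scale the median share of the MEF to iPSC distance covered at day 6 was 60.3% for the 24 higher genes (18.4% to 133%) and 39.1% for the 53 lower genes (13.0% to 209%). Wnt7a (88.4%), Krtdap (90.8%), Tek (88.1%), a receptor of endothelial cells, and Itgb4 (85.6%) were close to their iPSC level. Krt8 (24.4%), Podxl (27.3%) and Krt19 (28.3%) had most of the distance left. Notch1, the receptor, was at 3.26, 3.997, 7.76 and 10.4 FPKM and had covered 73.3%, and metallothionein 2, encoded by Mt2, at 44.9, 43.4, 103 and 135 FPKM had covered 75.6%. Of contractile genes, Myh11 had covered 62.3%, Cnn1 32.4%, Acta2 27.4% and Myl9 20.1%. Past the iPSC level were 3 higher and 3 lower genes, among them Apol7d at 8.65, 10.6, 1.02 and 3.56 FPKM.

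Secreted, matrix and inflammatory genes were among those whose day 6 level lay away from iPSCs. Lcn2, Nqo1, Dcn, Efemp1, Ly6c1, Ly6a, Ahr, Cxcl1, Cxcl5, Il6 and Vcam1 belong here, as does Ptgs1, the constitutive cyclooxygenase, at 3.60, 5.53, 11.1 and 0.884 FPKM. The 4 lower genes of this kind were Supv3l1, Cdkn1c, Ndrg2 and 1190002H23Rik. Cdkn1c, an imprinted inhibitor of cyclin-dependent kinases, was at 3.20, 1.59, 0.982 and 19.5 FPKM, and Ndrg2 at 4.24, 2.90, 1.55 and 10.7 FPKM. Of the squamous and detoxification genes with the largest differences, Slurp1, Aldh3a1, Mal, Krt14 and Krt16 were in the class neither. These had 1.07 FPKM or less in both MEFs and iPSCs. Gsta4, with a difference of 2.93, was toward.

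**Figure D5:**
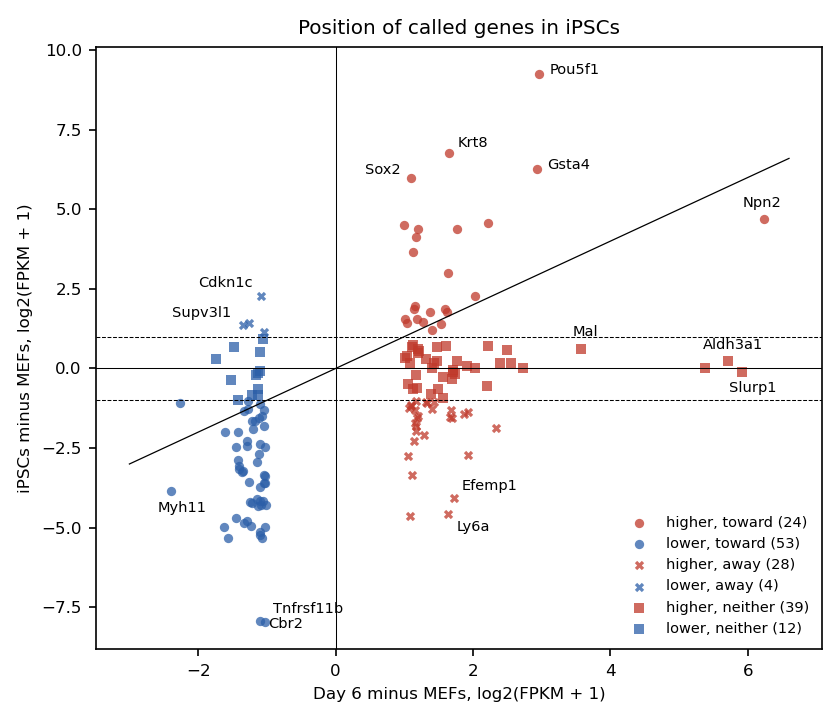
Each called gene is placed by its difference from MEFs at day 6 (x axis) and in iPSCs (y axis), both on the log2(FPKM + 1) scale. Dashed lines mark a difference of 1 in iPSCs and the oblique line equal differences. Circles are toward (24 higher, 53 lower), crosses away (28 and 4) and squares neither (39 and 12). Most lower genes lie below the lower dashed line, and higher genes lie on all sides.

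The threshold divides genes that differ little from each other. Just inside it were Fam25c (1.00), Rims1 (1.01) and Arrdc3 (1.02) on the higher side, and just outside were Syt8 and Cxcl14 (both 0.99) and Cdh1 (0.98), the gene of E-cadherin. On the lower side Tagln (-1.02), Limch1 and Rasgrp3 (both -1.03) were inside, and Zdhhc2 (-0.9985), Arhgap27 and Actg2 (both -0.98) outside. Counts of called genes are therefore sensitive to the value chosen.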

How the data were processed

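Values are FPKM per gene as the authors deposited them, in 1 table with 1 column for each of 4 long RNA libraries, per the file headers. The submitters' processing notes list HISAT2, Cufflinks and the build mm9 without stating versions. Ribosomal RNA was removed before library construction, per the labels' protocols. No source used here gives the gene models, strand setting or pooling. The small RNA libraries were not used here.

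Differences of log2(FPKM + 1) were computed in Python 3.11.15 with pandas 2.3.3 and numpy 2.4.6, over rows with at least 1 FPKM in MEFs or at day 6. Understated changes of weak genes follow from the added 1. The calculation was run on simulated data with changes planted in genes of moderate to high level and with little noise. That check covers the code only, and not how the classes hold for weak genes or real noise. With 1 library a group no test was made. Relative depth came from the ratio of values under 0.06 FPKM.

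Named genes are the 20 largest differences each way without predicted, clone or short RNA names, called members of the lists with up to 4 more abundant ones, the factors, the 5 largest of each timing and direction class, and the 3 nearest the threshold on each side. Other genes were named after their values were seen. The members and lists were chosen with earlier results of these data known. Of 17838 Ensembl identifiers, 17320 matched a current name. Promoter sequences are from RefSeq on GRCm38.p6. Alternatives tried were 2 pseudocounts, 2 filters, other thresholds, 2 scalings, left-out rows and other definitions of steady and toward.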

Additional observations from a re-analysis of the deposited data

How the results depend on the processing

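No paired analysis was possible because 1 library stood for each stage, which also leaves no replicate to omit. Values lack a replicate check, and counting error weighs most on weak genes at day 3, the shallowest library. Counts of called genes, timing classes (early, steady, late) and direction classes (toward, away, neither) stayed within 1.5 times their value under both scalings. The direction counts did so with day 3 as baseline as well. Leaving out the filter could not change these counts, because a gene under 1 FPKM in both libraries cannot differ by 1. Scaling to the upper quartile moved the median of all genes from -0.02 to 0.03. A log2 difference of 0.5 was chosen after seeing the data. Other thresholds, other pseudocounts and a minimum of 5 FPKM change which genes are called. The other definition of steady reclassifies the same called genes, and the cause was not tested beyond that. Single genes were recomputed only where they were called, so each differed by at least 1 at the outset. Of these, 0 changed sign, which the choice of genes all but fixed. The medians of 10 lists changed sign under some setting, all within 0.1 of 0 on both sides except those of the pluripotency and epithelial genes, which were -0.33 and -0.21 with a minimum of 5 FPKM. The order of some counts did turn. Lower genes outnumbered higher ones with a log2 difference of 0.5. Among higher genes, toward outnumbered away with pseudocounts of 0.1 and 5 and log2 differences of 0.5 and 2. Steady was no longer under late among them with either pseudocount, a minimum of 5 FPKM, either other log2 difference or the other definition of steady.

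A pseudocount of 0.1 gave 166 higher genes (18 early, 83 steady, 62 toward, 56 away) and 163 lower genes (12 early, 56 steady, 95 late, 106 toward, 15 away, 42 neither). A pseudocount of 5 gave 26 higher (2 early, 16 steady, 8 late, 5 toward, 4 away, 17 neither) and 24 lower (0 early, 8 steady, 16 late, 18 toward, 1 away, 5 neither). A minimum of 5 FPKM gave 50 higher (23 steady, 22 late, 10 toward, 16 neither), with 0 early and 2 away among the lower genes. A log2 difference of 2 gave 17 higher (2 early, 10 steady, 5 late, 5 toward, 1 away, 11 neither) and 2 lower (0 early, 1 steady, 1 late, 2 toward, 0 away, 0 neither). A log2 difference of 0.5 gave 401 higher (67 early, 167 steady, 167 late, 111 toward, 108 away, 182 neither) and 597 lower (32 early, 266 steady, 299 late, 368 toward, 41 away, 188 neither). With steady meaning any day 3 value between MEFs and day 6, there were 1 early, 77 steady and 13 late higher genes and 2, 60 and 7 lower ones. The early lower genes numbered 1 once predicted, clone and short RNA names were left out and 2 without genes listed at 0. The median of the epidermal and squamous genes was 3.81 and 0.65 with pseudocounts of 0.1 and 5 and 0.29 with no filter. The median of the mesothelial markers was 0 with no filter, and that of the endothelial markers was -0.99 with a minimum of 5 FPKM.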

Other observations

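Some abundant genes shifted far in FPKM while staying within the threshold, and those given here were picked after their values were seen. Igfbp2, a carrier of insulin-like growth factors, was at 10428, 8553, 6432 and 468 FPKM in MEFs, day 3 and day 6 cells and iPSCs. Spp1, the secreted phosphoprotein osteopontin, was at 7598, 6325, 4008 and 162 FPKM in the same order, a difference of -0.92. Igfbp7 was at 1259, 884, 726 and 4.23 FPKM and the matrix gene Ccdc80 at 1517, 1322, 866 and 2.42 FPKM. In these 4 genes each library was lower than the one before, and Igfbp3, the called member of the same family, went the other way. FPKM values are relative to library size, and the sum of FPKM was 486609 in MEFs and 449922 at day 6.

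In the opposite direction, Timp1, an inhibitor of matrix metalloproteinases, was at 803, 884, 1548 and 43.9 FPKM and its relative Timp3 at 280, 308, 477 and 9.22 FPKM, while Timp2 differed by -0.10. Type I collagen was higher in both chains, with Col1a1 at 940, 1257, 1453 and 7.47 FPKM and Col1a2 at 1457, 1505, 1807 and 11.8 FPKM. Of the mitochondrial rows mt-Nd2 was at 1461, 2330, 2586 and 619 FPKM, and 12 of 13 mitochondrially encoded genes lay above MEFs with a median of 0.39. Levels in MEFs differed widely among these rows, from 6222 FPKM for mt-Co1 to 14.3 for mt-Co2, 9.79 for mt-Atp6 and 5.88 for mt-Nd4l. The median is the value of mt-Nd4l, a weak row, so it does not measure mitochondrial RNA as a whole. The 1 mitochondrial gene called was mt-Atp8, a short gene that overlaps its neighbour mt-Atp6.

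Immediate early genes respond within minutes to growth factors and handling. The list that holds them together with growth factor feedback genes had a median of -0.05 over 22 compared, and of 0.0059 with upper quartile scaling. Of the 22, 9 lay above MEFs and 13 below. No median was computed for the immediate early genes alone. Fosb was called lower with 7.17, 7.25, 2.99 and 0.480 FPKM, and Fos was at 122, 130, 72.5 and 10.5 FPKM, while Fosl1 was at 7.48, 11.02, 14.9 and 0.0651 FPKM, a difference of 0.91. Among matrix proteases Mmp3 was called higher with 0.523, 0.290, 2.45 and 0 FPKM, and Mmp12 was at 3.20, 2.57, 1.16 and 0.0938 FPKM.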
